A study of Mus musculus with 6 samples.

Results

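The genes described here encode the signalling core of lymphocyte antigen and activating receptors: the CD3 chains (Cd3d, Cd3e, Cd3g and the zeta chain gene Cd247), the adaptors Fcer1g, Tyrobp and Hcst, and the kinases Zap70, Syk and Lck. The 10 genes were chosen by symbol with their differences between these same arrays already known, so the values given for them are a description without a test. Of the 10, 9 were measured, out of 19943 genes in all, each by 1 probe set. No probe set carried Lck as its only symbol, and Lck was not analysed here.

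Expression was profiled in mouse natural killer (NK) cells, on 6 arrays, of which 3 hold IL-18 generated and 3 hold unstimulated cells. All were NK1.1 isolated, and both groups were flow sorted as live NK1.1 positive, CD3 negative cells. The IL-18 cells had overnight culture with 300 IU IL-2 and 25 ng/ml IL-18 and were gated as CD11b negative and c-kit positive, whereas the unstimulated cells were gated as CD11b positive and c-kit negative. IL-18 generation and the gate changed together and cannot be told apart. The sources used here leave unclear if the unstimulated cells had this culture too, and do not give the strain and age of the mice. The design text calls the preparations independent, and p-values measure the spread between these 6 arrays. A sort gate on CD3 reads protein at the cell surface, whereas the arrays read transcripts.

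In T cells the delta, epsilon and gamma chains of CD3 pair with each other and, with the zeta chain, carry the signal of the T cell receptor. Each chain bears tyrosine motifs called ITAMs, which Lck phosphorylates and to which ZAP-70 then binds. NK cells have no T cell receptor and use the zeta chain, FcR gamma (Fcer1g) and DAP12 (Tyrobp) as the ITAM partners of their activating receptors, while DAP10 (Hcst) carries a motif for PI3 kinase instead of an ITAM. The kinases SYK and ZAP-70 both serve these adaptors in NK cells. Without the T cell receptor, CD3 delta, epsilon and gamma are not normally brought to the cell surface as a complete complex.

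The 4 promoter windows below are shown because Cd3d, Cd3e and Cd3g were higher together and Cd247, whose product joins theirs in one complex, was lower. Each holds the 250 bases before the start site in RefSeq's table for GRCm38.p6, written 5′ to 3′ on the gene's strand. Capitals mark matches, on either strand, to any of 6 short motifs of factor families known from lymphocyte genes. The letters searched were AGGAAG for ETS factors, CANCTG for E-box factors, AGATAA for GATA factors, TGTGGT for RUNX factors, TCACACC for T-box factors and TGACGT for the CRE. The windows are chr9:44981536-44981785 (+) for Cd3d, chr9:45009612-45009861 (-) for Cd3e, chr9:44980432-44980681 (-) for Cd3g and chr1:165788431-165788680 (+) for Cd247.
Cd3d: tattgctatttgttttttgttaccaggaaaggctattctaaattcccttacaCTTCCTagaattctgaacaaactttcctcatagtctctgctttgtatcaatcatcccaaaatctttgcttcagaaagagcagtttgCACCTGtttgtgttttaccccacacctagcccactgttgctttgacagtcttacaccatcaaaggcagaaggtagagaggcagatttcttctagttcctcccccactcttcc
Cd3e: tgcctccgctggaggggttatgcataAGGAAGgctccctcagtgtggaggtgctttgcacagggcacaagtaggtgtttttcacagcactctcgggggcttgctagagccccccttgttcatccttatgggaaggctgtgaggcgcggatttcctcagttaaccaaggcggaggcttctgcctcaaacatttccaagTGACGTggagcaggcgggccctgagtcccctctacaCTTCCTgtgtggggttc
Cd3g: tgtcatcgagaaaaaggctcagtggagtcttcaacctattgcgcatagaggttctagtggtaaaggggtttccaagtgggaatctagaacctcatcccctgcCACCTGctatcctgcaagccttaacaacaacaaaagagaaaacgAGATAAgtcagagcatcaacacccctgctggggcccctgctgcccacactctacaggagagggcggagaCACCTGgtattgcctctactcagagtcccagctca
Cd247: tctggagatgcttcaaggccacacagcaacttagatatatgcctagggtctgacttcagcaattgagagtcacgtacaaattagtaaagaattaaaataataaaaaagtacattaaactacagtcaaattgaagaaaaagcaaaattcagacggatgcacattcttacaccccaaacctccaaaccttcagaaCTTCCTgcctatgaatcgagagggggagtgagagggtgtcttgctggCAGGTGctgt

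The 3 CD3 chain windows shared no single motif of the 6. The Cd3d window held 1 ETS match, beginning 198 bases before the start, and 1 E-box match at 112 bases. In the Cd3e window there were 2 ETS matches, at 224 and 17 bases, and 1 CRE match at 53 bases. The Cd3g window held 2 E-box matches, at 148 and 35 bases, and 1 GATA match at 104 bases, with no ETS match. Cd247 held 1 ETS match at 57 bases and 1 E-box match at 10 bases, the same pair of motifs as Cd3d. Links between matches and expression were not tested. Matches did not overlap in these windows, and none of the 4 held the RUNX or the T-box letters. Of all 32851 windows in the table, 29.5% held the ETS letters, 44.8% the E-box, 9.99% the GATA, 14.0% the RUNX, 3.33% the T-box and 6.47% the CRE letters. The window of Fcer1g held 1 ETS match and that of Hcst 2, and 9 of the 10 genes had at least 1 window in the table, the other being Tyrobp.

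All values are taken as log2 expression relative to the median of the probe set over the 6 arrays. Differences can thus be read, but levels cannot be compared between genes. Where the groups do not overlap, that median lies midway between the inner arrays of the 2 groups, which therefore carry equal values of opposite sign. Differences are IL-18 minus unstimulated, on the log2 scale, with limma's SE and 3 arrays per group. Where 2 genes or a mean of genes are set against each other, the SE comes from the SDs of that quantity within the groups. The genes of the sort followed the gates for Kit (c-kit), at 2.79 ± 0.13, and for Itgam (CD11b), at -5.32 ± 0.11. Klrb1c (NK1.1), positive in both gates, was lower at -2.03 ± 0.11, and 12 of 12 other NK cell markers also fell (limma adjusted p below 0.05). Of all genes, 16.7% fell at that threshold. In bulk samples, fewer cells of a type and less RNA per cell cannot be told apart.

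The delta, epsilon and gamma chain genes were higher in the IL-18 cells by 2.16-fold to 3.02-fold, and every other measured gene of the set was lower, by 1.41-fold to 2.69-fold. Each of the 9 had its 3 IL-18 arrays wholly above (3 genes) or wholly below (6 genes) its 3 unstimulated arrays. Over all genes, the arrays separated in this way for 22.9% on the higher side and 25.7% on the lower side, and nothing is read from the members' count, since the choice of members used this contrast.

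**Figure D1:**
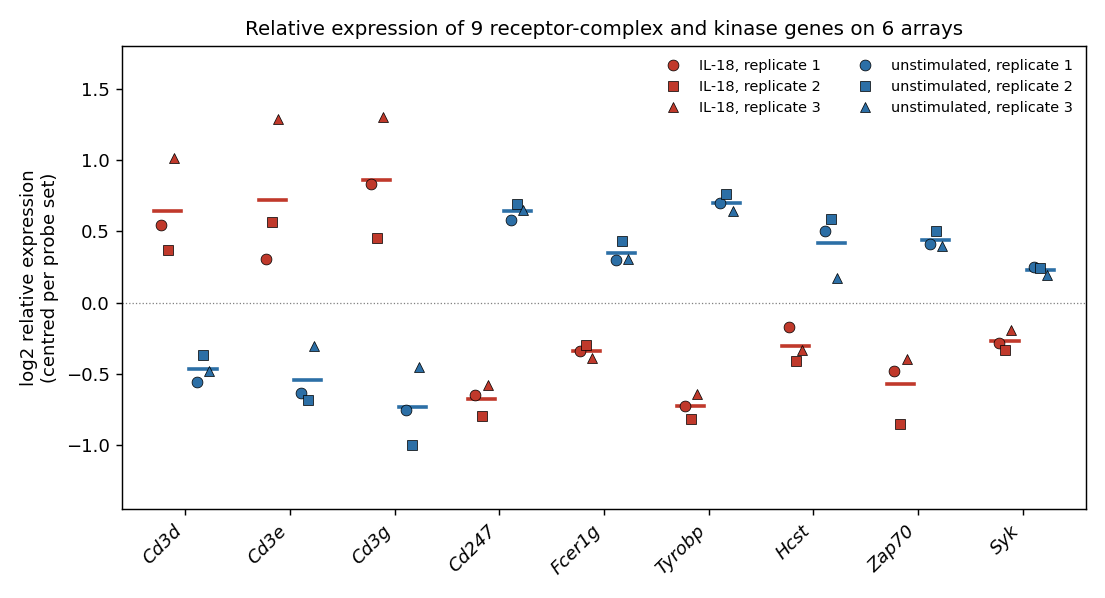
Relative expression (log2, centred per probe set) of the 9 measured genes, with one point per array (IL-18 in red, unstimulated in blue, marker shape by replicate) and a bar at each group mean. The 3 CD3 chain genes have their IL-18 arrays above 0, spread over up to 0.98, and the other 6 genes have them below 0.

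Cd3g, the gamma chain gene, read 0.83, 0.45 and 1.30 on IL-18 arrays 1, 2 and 3, and -0.76, -0.998 and -0.45 on unstimulated arrays 1, 2 and 3. Its lowest IL-18 array thus stood 0.91 above its highest unstimulated array. The difference, 1.60 ± 0.20 or 3.02-fold, was the largest of the set on the higher side and ranked 213 from the top of 19943 genes. Cd3e, whose epsilon chain pairs with both delta and gamma, read 0.31, 0.57 and 1.29 against -0.64, -0.68 and -0.31. IL-18 array 3 was again the highest. Its difference was 1.26 ± 0.21, or 2.40-fold. Cd3d, the delta chain gene, read 0.55, 0.36 and 1.01 against -0.56, -0.36 and -0.48, a difference of 1.11 ± 0.14 or 2.16-fold.

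IL-18 array 3 was the highest for all 3 genes, and the SD among IL-18 arrays was 0.33 for Cd3d, 0.51 for Cd3e and 0.42 for Cd3g, compared with 0.04 to 0.24 for the other 6 genes. The mean of the 3 chains was 0.56, 0.46 and 1.20 on the IL-18 arrays and -0.65, -0.68 and -0.41 on the unstimulated ones. Its difference was 1.32, and 1.09 without IL-18 array 3, over a range of 1.09 to 1.46 as each array was left out. Cd3g exceeded Cd3e by 0.34 ± 0.20 (SE, 3 arrays per group) and Cd3e exceeded Cd3d by 0.15 ± 0.22.

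Cd247, the zeta chain gene, went the other way. It read -0.65, -0.80 and -0.58 on the IL-18 arrays and 0.58, 0.69 and 0.65 on the unstimulated arrays. The arrays of each group lay close together, with SDs of 0.11 and 0.05. Its difference was -1.32 ± 0.08, a 2.49-fold lower value, close in size to the mean difference of the other chains. The mean of the 3 chains minus Cd247 was 1.21, 1.26 and 1.78 in the IL-18 cells and -1.23, -1.37 and -1.06 in the unstimulated cells. The difference between the groups in this quantity was 2.64 ± 0.20, or 6.22-fold.

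Among the adaptors, Tyrobp, which encodes DAP12, had the lowest value of the set relative to the unstimulated cells. It read -0.73, -0.82 and -0.64 on the IL-18 arrays and 0.70, 0.76 and 0.64 on the unstimulated arrays, and 1.29 separated the nearest arrays of the 2 groups. The difference was -1.43 ± 0.08, or 2.69-fold. Fcer1g, the FcR gamma chain gene, read -0.34, -0.30 and -0.39 against 0.30, 0.43 and 0.30. Its 3 IL-18 arrays were the most alike of the set, and its difference of -0.69 ± 0.08, or 1.61-fold, was smaller than that of Tyrobp by 0.74 ± 0.08. Hcst, the DAP10 gene, read -0.17, -0.41 and -0.33 against 0.50, 0.58 and 0.17. For this gene IL-18 array 1 and unstimulated array 3 were the nearest arrays of the 2 groups. The gap between them was 0.35, the smallest of the set, and the difference of Hcst was -0.73 ± 0.11.

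Both kinases measured were lower. Zap70 read -0.48, -0.85 and -0.40 on the IL-18 arrays and 0.41, 0.51 and 0.40 on the unstimulated arrays, with IL-18 array 2 below the other two. The difference was -1.01 ± 0.11, or 2.02-fold. Syk read -0.29, -0.33 and -0.20 against 0.25, 0.24 and 0.20, and its difference, -0.50 ± 0.07 or 1.41-fold, was the smallest of the set. Zap70 was lower than Syk, relative to the unstimulated cells, by a further 0.51 ± 0.11.

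**Figure D2:**
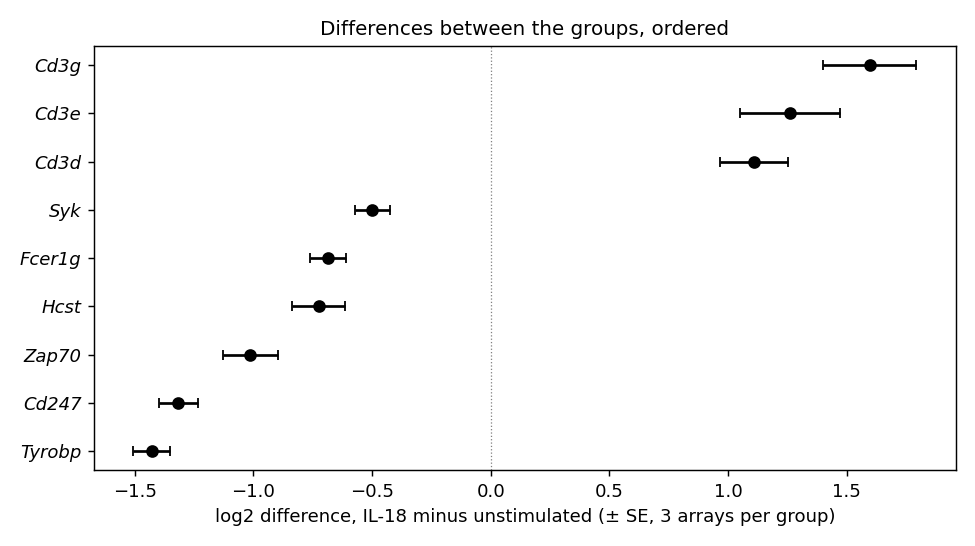
Difference between the group means (IL-18 minus unstimulated, log2) for each measured gene, ordered, with limma's SE as bars and 3 arrays per group. The CD3 chain genes lie between 1.11 and 1.60, the other genes between -1.43 and -0.50.

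In the order of the differences, the step from Cd3d down to Syk was 1.61 ± 0.16. Below it, Fcer1g and Hcst differed by 0.04 ± 0.13, the smallest gap of the order, and Hcst and Zap70 by 0.29 ± 0.15. Zap70 and Cd247 stood 0.30 ± 0.08 apart, Cd247 and Tyrobp 0.11 ± 0.04, and Syk and Fcer1g 0.19 ± 0.08. These gaps describe the chosen genes and carry no test.

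Cd3g, Cd3d and Cd3e follow each other on chromosome 9, and Tyrobp and Hcst are neighbours on chromosome 7. The nearest measured protein-coding genes on both sides were looked up by position after the members' values were known. Beside the CD3 genes, Ube4a had a difference of -0.10 ± 0.09 and Mpzl2 of -0.11 ± 0.08 (limma adjusted p 0.406 and 0.33), and the groups overlapped for both. Beside Tyrobp and Hcst, Lrfn3 had -0.20 ± 0.09 and Nfkbid -0.07 ± 0.09 (limma adjusted p 0.0931 and 0.602), again with overlapping groups. Lrfn3 passed, lower, without unstimulated replicate 2 (limma adjusted p 0.0297, in a range of 0.0297 to 0.269 over 13 alternatives). Beside Cd247 and Fcer1g the 4 flanking genes had differences between -0.31 and -0.09. Of these Apoa2 fell with -0.27 ± 0.08 (limma adjusted p 0.029), a call that ended without IL-18 replicate 2 or 3 or unstimulated replicate 1 or 3 (limma adjusted p 0.0526 to 0.132). Adamts4, on the other side of Fcer1g, had -0.22 ± 0.10 (limma adjusted p 0.114). It passed, lower, with array weights and without unstimulated replicate 2 (limma adjusted p 0.0364 and 0.0122, in a range of 0.0122 to 0.356 over 13 alternatives).

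The genes most like the mean of the 3 CD3 chains over the 6 arrays, by root mean square difference on the log2 scale, were 4930503L19Rik at 0.12, Penk (the enkephalin precursor) at 0.13 and Gtpbp2 at 0.14. Cd3e itself lay 0.13 from that mean, Cd3d 0.16 and Cd3g 0.18. For Tyrobp they were Dab2ip at 0.04, Sh2d3c at 0.06 and Dusp7, a MAP kinase phosphatase, at 0.06. For Fcer1g they were Selplg, the selectin ligand PSGL-1, at 0.02, Serinc3 at 0.03 and Marchf1 at 0.03.

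Most T cell markers did not pass as different between the groups. Of 13 measured, 1 rose, 2 fell and 10 missed limma's threshold of an adjusted p below 0.05, for a median of -0.06, where 19.7% of all 19943 genes passed as higher and 16.7% as lower and the median was -0.06. The mean over the list lay between -0.15 and 0.02 on the IL-18 arrays and between 0.00 and 0.11 on the unstimulated arrays. Cd4, the coreceptor gene of helper T cells, read -0.01, -0.05 and 0.01 on the IL-18 arrays and 0.02, 0.03 and -0.03 on the unstimulated arrays, a difference of -0.02 ± 0.07. The T cell surface genes Cd5 and Cd6 had -0.10 ± 0.08 and -0.06 ± 0.08, the costimulator gene Cd28 had 0.03 ± 0.11 and the cytotoxic coreceptor gene Cd8a had -0.26 ± 0.11 (these 5 chosen for naming after their values were seen). None of these 5 passed with all arrays (limma adjusted p 0.0908 to 0.877), while Cd8a passed, lower, without unstimulated replicate 2 and with array weights (limma adjusted p 0.0033 and 0.0183, in a range of 0.0033 to 0.301 over 13 alternatives). A gene absent from both groups would also show a difference near 0, and no probe set had a T cell receptor constant region as its only symbol.

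**Figure D3:**
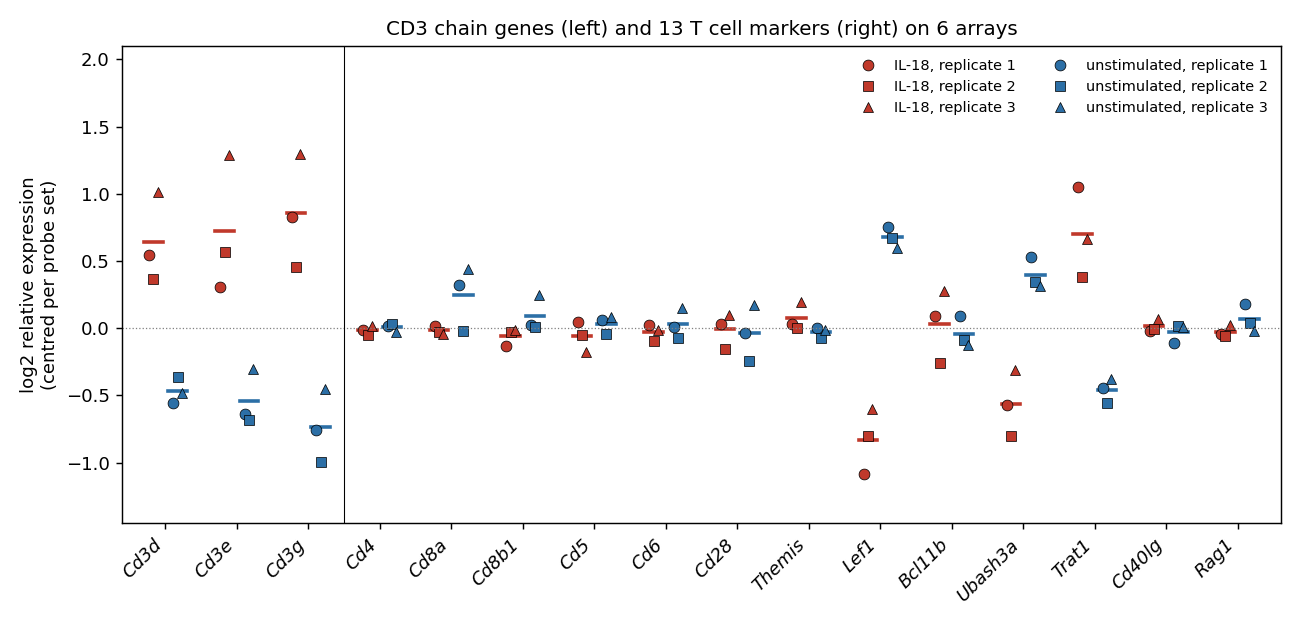
Relative expression (log2, centred per probe set) of the 3 CD3 chain genes, left of the line, and of 13 T cell markers, with one point per array and a bar at each group mean. Trat1 has its IL-18 arrays well above the unstimulated ones and Lef1 and Ubash3a have them well below, while the other 10 differ by between -0.26 and 0.10.

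The marker that rose was Trat1, which encodes TRIM, an adaptor that associates with the T cell receptor and CD3 complex. It read 1.05, 0.38 and 0.67 on the IL-18 arrays and -0.45, -0.56 and -0.38 on the unstimulated arrays, a difference of 1.16 ± 0.15 (limma adjusted p 0.000104). Its highest array was IL-18 array 1, not array 3 as for the CD3 chains. Lef1, a transcription factor gene of naive T cells, fell with -1.50 ± 0.12 and Ubash3a, a dampener of T cell receptor signalling, with -0.96 ± 0.12 (limma adjusted p 3.51e-06 and 0.000112). The part of T cells in the CD3 chain values was not tested beyond these measurements.

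Most receptors listed as users of the adaptors fell as well. Of 13 measured receptors listed for CD247 or FCER1G, 10 fell and the other 3 missed the threshold. None passed as higher (also 0 at an unadjusted limma p below 0.05). The median of the 13 was -1.20. The largest decreases were of Fcgr4, an activating IgG receptor, at -4.59 ± 0.18, and of the IgE receptor chains Fcer1a at -2.70 ± 0.48 and Ms4a2 at -2.58 ± 0.46, with limma adjusted p of at most 0.00115. With limma's robust option Fcer1a and Ms4a2 had adjusted p of 0.051 and 0.0503, the highest over 13 alternatives. Pirb, on this list beside its activating relatives, is itself an inhibitory receptor. NK cells carry some of the others: Ncr1 (NKp46) fell with -0.97 ± 0.09, Fcgr3 (CD16) with -0.67 ± 0.12 and Klrb1a with -2.55 ± 0.15 (named after their values were seen, limma adjusted p at most 0.00101).

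All 17 measured receptors listed for TYROBP fell, with a median of -1.35. Without IL-18 replicate 1 or 3 or unstimulated replicate 1 or 3, 16 of them fell. Csf1r, the receptor for the macrophage growth factor, fell with -4.38 ± 0.18, Cd300ld with -3.87 ± 0.23 and Cd200r3 with -2.94 ± 0.27 (limma adjusted p at most 1.08e-05). Those are receptors of myeloid cells, mast cells or basophils. Among NK receptors of the list, named after their values were seen, Klra8 (Ly49H) fell with -1.44 ± 0.12 and Klrd1 (CD94) with -0.88 ± 0.13 (limma adjusted p at most 0.000281), the former from a family of near-identical genes whose separate values are uncertain. All 5 receptors listed for HCST fell too, among them Cd300ld as above, Klrc2 (NKG2C) with -1.09 ± 0.17 and Clec5a with -0.94 ± 0.11. Klrk1 (NKG2D), DAP10's main partner and named after its value was seen, fell with -0.69 ± 0.09 (limma adjusted p at most 0.000517 for the genes named). Of the 5, Siglec15, named after its value was seen (limma adjusted p 0.0347) missed the threshold with limma's trend option and in 5 of the 6 fits that left out an array, in a range of 0.00326 to 0.126 over 13 alternatives. The lists overlap, since some receptors use several adaptors. Which adaptor each listed gene uses was not checked here, Cd300ld and Csf1r included, so the counts are of listed genes.

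Markers of myeloid cells, which also express Fcer1g, Tyrobp and Syk, fell in the same comparison. All 8 monocyte and macrophage markers fell, with a median of -3.76, led by Lyz2 at -7.16 ± 0.15, Cybb at -6.15 ± 0.19 and Mpeg1 at -4.39 ± 0.19. The list mean was between -1.94 and -1.84 on the IL-18 arrays and between 1.74 and 2.35 on the unstimulated arrays. All 10 neutrophil markers fell, with a median of -2.73, and Ngp had -5.66 ± 0.32, Cxcr2 -3.65 ± 0.31 and S100a9 -3.36 ± 0.35. Their list mean ran from -1.20 to -1.07 and from 1.09 to 2.20. Limma adjusted p for the genes named was at most 3.1e-05.

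Mast cells and basophils carry Fcer1g in their IgE receptor, and B cells depend on Syk. Of 10 mast cell and basophil markers, 7 fell and 3 missed the threshold, for a median of -2.64. The proteases Cpa3, Prss34 and Mcpt8 had -4.26 ± 0.76, -4.26 ± 0.73 and -4.16 ± 0.86 (limma adjusted p 0.00115, 0.000891 and 0.00307). With limma's trend option those 3 did not pass (adjusted p 0.976, 0.0676 and 0.999). The list mean was -1.78, -0.43 and -1.79 on the IL-18 arrays and 1.25, 1.53 and 0.44 on the unstimulated arrays. IL-18 array 2 and unstimulated array 3 thus lay nearest to each other. The mast cell proteases Mcpt4, Tpsb2 and Tpsab1 were the 3 that missed the threshold (as looked up afterwards), with differences between -0.16 and -0.08. Cma1, also a mast cell protease, fell with -3.40 ± 0.15 (limma adjusted p 9.92e-08, named after its value was seen). Of 9 B cell markers, 8 fell and 1 missed the threshold, at a median of -0.62 and with list means of -0.47 to -0.27 and 0.21 to 0.80. Ighm fell with -3.58 ± 0.36, Cd22 with -1.18 ± 0.13 and Cd79b with -0.93 ± 0.17 (limma adjusted p at most 0.00146). B cell calls dropped to 5 without IL-18 replicate 3 or without unstimulated replicate 1 or 3. The 12 NK cell markers had a median of -0.93 and list means of -0.86 to -0.62 and 0.56 to 0.85. Among them Gzma (granzyme A) had -4.10 ± 0.20, Itga2 -2.21 ± 0.13 and Prf1 (perforin) -2.17 ± 0.14 (limma adjusted p at most 7.97e-07). The part of each cell type in the lower values of Fcer1g, Tyrobp, Hcst, Cd247, Zap70 and Syk was not tested.

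Over all pathway lists together, from receptors to dampeners, decreases outnumbered increases. Of the 128 measured genes on the pathway lists, 82 fell, 3 rose and 43 missed the threshold. Over all genes, 16.7% passed as lower and 19.7% as higher. The median of the 128 was -0.53 beside -0.06 over all genes, and the lists were chosen with earlier results of these data known. Of the 128 genes, 115 stood on no cell type marker list, and among those 74 fell and 3 rose. Genes that the marker lists lack, such as Cd300ld at -3.87 and Fgr at -2.46, are also expressed by myeloid cells. This count therefore cannot separate cell type from pathway, and the part of each was not tested.

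**Figure D4:**
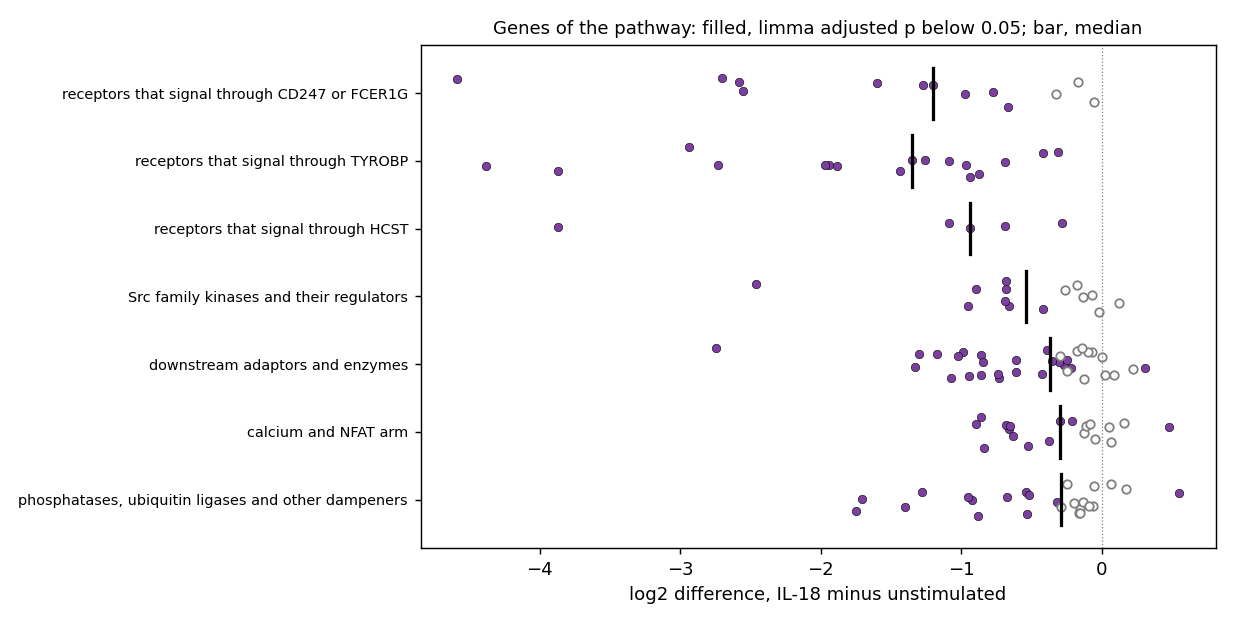
Difference between the groups (IL-18 minus unstimulated, log2) for each measured gene of 7 pathway lists, filled where limma's adjusted p was below 0.05, with a bar at each list's median. Receptor lists have medians between -1.35 and -0.94, and the lists downstream have medians between -0.54 and -0.29.

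Src family kinases, to which Lck belongs, and their regulators were measured by 14 genes, of which 8 fell, none passed as higher (also 0 at an unadjusted limma p below 0.05) and 6 missed the threshold. Their median was -0.54. Fgr, a Src kinase of myeloid and NK cells, fell with -2.46 ± 0.17. Fyn, the Src kinase that shares the phosphorylation of ITAMs with Lck in T cells, read -0.45, -0.53 and -0.35 on the IL-18 arrays and 0.35, 0.65 and 0.55 on the unstimulated arrays, and fell with -0.96 ± 0.09. Unc119, which promotes Src kinase activity, fell with -0.90 ± 0.10. Limma adjusted p for these 3 was at most 4.64e-05.

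Adaptors and enzymes that act after ZAP-70 and SYK numbered 34, with 22 lower, 1 higher and 11 short of the threshold, and a median of -0.37. Lat, the membrane scaffold that ZAP-70 phosphorylates, read -0.77, -0.59 and -0.57 on the IL-18 arrays and 0.69, 0.79 and 0.57 on the unstimulated arrays. It fell with -1.33 ± 0.09, close to Cd247. Rasgrp2, an activator of the GTPase RAP1, had the largest decrease at -2.74 ± 0.09, and Prkcq, which encodes protein kinase C theta, had -1.30 ± 0.10 (limma adjusted p at most 3.53e-06 for the 3). The gene that rose was Vav2, a guanine nucleotide exchange factor gene, by 0.31 ± 0.09 (limma adjusted p 0.0216). Vav2 did not pass without IL-18 replicate 2 or 3 or unstimulated replicate 1 (limma adjusted p 0.0821, 0.0803 and 0.0796, in a range of 0.0146 to 0.0821 over 13 alternatives).

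In the calcium and NFAT arm, 11 of 19 genes fell, 1 rose and 7 missed the threshold, for a median of -0.30. Nfatc1, an NFAT transcription factor gene, fell with -0.89 ± 0.08, Ppp3ca, a catalytic subunit of calcineurin, with -0.86 ± 0.09 and Orai2, a calcium channel gene, with -0.84 ± 0.09 (limma adjusted p at most 3.27e-05). Rcan3, a regulator of calcineurin, rose by 0.47 ± 0.10 (limma adjusted p 0.00272).

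Of 25 phosphatases, ubiquitin ligases and other dampeners, 12 fell, 1 rose and 12 missed the threshold, for a median of -0.29. Dok3, an inhibitory adaptor, fell with -1.75 ± 0.13. Sla, which encodes SLAP, an adaptor known to promote the breakdown of the T cell receptor complex in thymocytes, fell with -1.71 ± 0.19, and Rasa3, a GTPase activator that turns off RAS family proteins, with -1.40 ± 0.10 (limma adjusted p at most 4.21e-05). Rasa2, another RAS GTPase activator, rose by 0.55 ± 0.11 (limma adjusted p 0.00306).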

How the data were processed

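Total RNA of 6 NK cell preparations was biotin labelled and hybridised to 1-colour Affymetrix arrays, per the labels' protocols. For 28815 probe sets the authors deposited processed values on a log scale, taken here as log2, with the median of each probe set over the 6 arrays at 0. How they were summarized and normalized, and to which log base, the sources used here do not state. Values reached from -4.43 to 5.48. Of 239 probe sets that ranged too widely for natural logarithms of values from 8 up (over 3.09), 44 (18.4%) fitted the step size of single-precision values from 8 to 16 (tolerance 0.15 of a step). The chance rate is 3.1% only if all 6 arrays of a probe set lay below 8. With some arrays above 8 it would be higher, in natural logarithms too, so this did not settle the base. Fold values rest on reading the values as log2. No levels, detection calls or filters on dim genes were possible, and the number of arrays limits the precision.

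Probe sets with 1 symbol in the platform annotation (21788; 1597 had several and 5430 were not listed) were averaged per gene. Groups were compared over all 19943 genes in R 4.3.3 by limma 3.58.1 (eBayes after lmFit, no covariate), with Benjamini-Hochberg adjustment and a threshold of 0.05. In T cell, NK cell and other lists, members of the set and the genes of the sort (Kit, Itgam, Klrb1c) were not counted. Named genes were the members, the sort genes, up to 3 largest increases and 3 largest decreases that passed in each list, and the 3 genes nearest in pattern to the CD3 chain mean, Tyrobp and Fcer1g. The members and lists were chosen with earlier results of these data known. Tested on simulated data for this contrast, the procedure recovered 46.3% of 67 genes given a log2 difference of 0.5, 92.5% of 67 at 1 and 100% of 66 at 2. Of its 168 calls, 9 were of unchanged genes. The simulation changed 200 of 19943 genes, a smaller share than passed in the real contrast, so recovery in the real data can differ. Python 3.11.15 with pandas 2.3.3, numpy 2.4.6 and matplotlib 3.10.9 prepared tables and figures. Alternatives were limma's trend and robust options, quantile normalization, array centring, array weights, the replicate number as a block, probe set handling, a fold threshold, and leaving out each array in turn.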

Additional observations from a re-analysis of the deposited data

How the results depend on the processing

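All 9 measured genes kept their direction under 11 alternatives each (normalization, probe set handling, the replicate block and leaving out each array). Their differences moved by less than 1 SD between arrays. Most of these alternatives could not have reversed a direction. With 1 probe set per gene and a balanced block, probe set handling and the block left each difference unchanged. The arrays of each gene were fully separated by group, so leaving out an array could not change the sign. Only quantile normalization and array centring could have done so. Counts moved most with a required log2 difference of at least 1: 721 genes higher and 647 lower in place of 3935 and 3332, 0 and 29 pathway genes in place of 3 and 82, and 31 marker genes lower in place of 47. By list, the lower calls under that threshold against those without it were 1 and 2 for T cell, 5 and 12 for NK cell and 2 and 8 for B cell markers, 11 and 17 for receptors of TYROBP, 2 and 5 for those of HCST, 1 and 8 for Src kinases, 6 and 22 for adaptors, 0 and 11 for the calcium arm, 4 and 12 for dampeners and 0 and 1 for NKG2D ligands, and the single higher calls among adaptors, the calcium arm and dampeners also ended, by construction of the threshold. Leaving out each array gave 2 to 5 pathway genes higher, with 5 without unstimulated replicate 2. In such fits the adaptor list's higher calls were 0 (without IL-18 replicate 2 or 3 or unstimulated replicate 1) or 2 and the dampeners' 2 (both without unstimulated replicate 2), and 0 NKG2D ligands passed as lower without IL-18 replicate 1. Mast cell and basophil calls were 4 with limma's trend option and 3 with its robust option in place of 7. The trend option relates spread to the mean, which in centred values is not an expression level. B cell calls were 5 after array centring.

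Of 125 list genes that passed, 104 passed in every refit counted here. Those were limma's options, quantile normalization, array centring, array weights, the replicate block, genes with 1 probe set and leaving out each array. The fold threshold, the fit per probe set and the median of probe sets were not part of that count. Replicate numbers are shared by the groups, but the deviations of same-numbered arrays correlated by 0.24, 0.01 and -0.02, so the numbers were not taken as pairs. With the replicate block, 3949 genes were higher and 3330 lower. Without replicates beyond 3 per group and without levels, small differences and absent transcripts could not be told from each other.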

Other observations

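Ligands of NKG2D, the receptor that DAP10 serves, were measured by 2 genes of the 9 listed. H60b fell with -0.39 ± 0.11 (limma adjusted p 0.015, in a range of 0.00551 to 0.0573 over 13 alternatives, where the highest left out IL-18 replicate 1), and Raet1d had -0.09 ± 0.07 (limma adjusted p 0.409). Of the genes that build T cell receptors, Rag1, Rag2 and the pre-T cell receptor gene Ptcra were measured, and 0 of 3 passed limma's test, at adjusted or unadjusted p, with differences between -0.15 and -0.09. The adaptor genes Sh2d1b1 and Sh2d1b2, which encode the related SLAM receptor adaptors EAT-2A and EAT-2B, had -1.08 ± 0.11 and 0.09 ± 0.29 (limma adjusted p 1.95e-05 and 0.841, both named after their values were seen). The difference between these 2 genes was not tested.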
